A study of Mus musculus with 6 samples.

Results

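The genes described here encode the machinery that makes, senses, moves and exports cholesterol: 18 enzymes of the synthesis route, 1 enzyme of the isoprenoid side branch, 5 regulators of the SREBP system, 6 proteins of transport, storage and uptake, and 5 genes of the LXR and efflux branch. These 35 genes were found by matching the Ensembl identifiers of the deposited count table to symbols of GENCODE M21, and all 35 were present among the 49671 gene rows of the table. The rule goes by gene function and uses no measured value, but the genes and roles were chosen with earlier results of these data known. All 35 had enough counts to be tested, as had 18040 genes in all.

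Whole testes were taken at 12 days of age from mice on a C57BL/6J background for RNA-seq, at a time when the first wave of germ cells is in early meiotic prophase. One group held 3 Ankrd31+/+ (wild-type) mice and the other held 3 Ankrd31-/- (knockout) mice. The product of Ankrd31 works with the machinery that makes the DNA breaks of meiosis. The labels do not state which part of the gene was deleted, and the counts cover the whole gene, so its level is only a partial check of the genotypes. No treatment is named for either group. The comparison asks how loss of Ankrd31 bears on the testis transcriptome.

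Cells build cholesterol from acetyl-CoA through the mevalonate pathway, which runs to farnesyl diphosphate, then to squalene and lanosterol, and by a series of demethylation, isomerisation and reduction steps to cholesterol. When sterols in the endoplasmic reticulum run low, SCAP carries the SREBP precursors to the Golgi for cleavage, and the released factors switch on the synthesis genes; INSIG proteins hold SCAP back when sterols are plentiful. When oxysterols build up, the nuclear receptors LXR alpha and LXR beta switch on exporters such as ABCA1 and ABCG1. In the testis, Leydig cells draw on cholesterol for steroid synthesis, and Sertoli cells take up and export large amounts of it while clearing germ cell debris.

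The libraries held 21014060 to 22706296 counts assigned to genes. Ankrd31 gave 84.94, 52.29 and 63.25 CPM (counts scaled to a common library size, with TMM factors) in wild-type replicates 1, 2 and 3, and 40.84, 33.15 and 38.02 CPM in knockout replicates 1, 2 and 3, with no overlap. Its log2 fold change was -0.84 ± 0.17 (SE), with an adjusted p of 1 in edgeR's quasi-likelihood test and of 0.00505 in edgeR with the replicate number as a block. Summed Sertoli markers (10 genes) ran from 6929 to 7888 CPM. Meiotic germ cell markers (11 genes) differed widely within the wild type, with 3043, 1910 and 2368 CPM in replicates 1, 2 and 3. In the knockout libraries they ran from 2307 to 3005 CPM, highest in replicate 1. Some libraries also stood apart by markers of other tissues or of Leydig cells. Wild-type replicate 3 held 155.5 CPM of 10 epididymis and rete markers against 75.51 to 91.48 CPM elsewhere, and its Crisp1 was at 29.73 CPM against at most 2.883 CPM. Not all of these markers were highest there. Epcam was highest in knockout replicate 1 (80.14 CPM, with 78.3 CPM in wild-type replicate 3). Pax2 was highest in wild-type replicate 2 (8.312 CPM, with 7.764 CPM in wild-type replicate 3). Wild-type replicate 3 also held the most of 7 adipocyte markers (65.95 CPM), followed by knockout replicate 3 (33.65 CPM) and then by 11.06 to 23.49 CPM in the other libraries. Adiponectin (Adipoq) was at 4.261 CPM in wild-type replicate 3 and 1.847 CPM in knockout replicate 3, and at 0.4121 CPM or less elsewhere. The adipocyte marker Plin1 was also highest in wild-type replicate 3 (20.55 CPM), but knockout replicate 3 was its lowest library (9.777 CPM). Summed Leydig markers (9 genes) reached 993.6 CPM in knockout replicate 2 and were lowest, at 447.2 CPM, in knockout replicate 3, with 548.4 to 622.2 CPM in the other libraries. For several genes the value without such a library is given as well. In whole tissue, fewer cells of a type and less RNA per cell cannot be told apart.

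**Figure D1:**
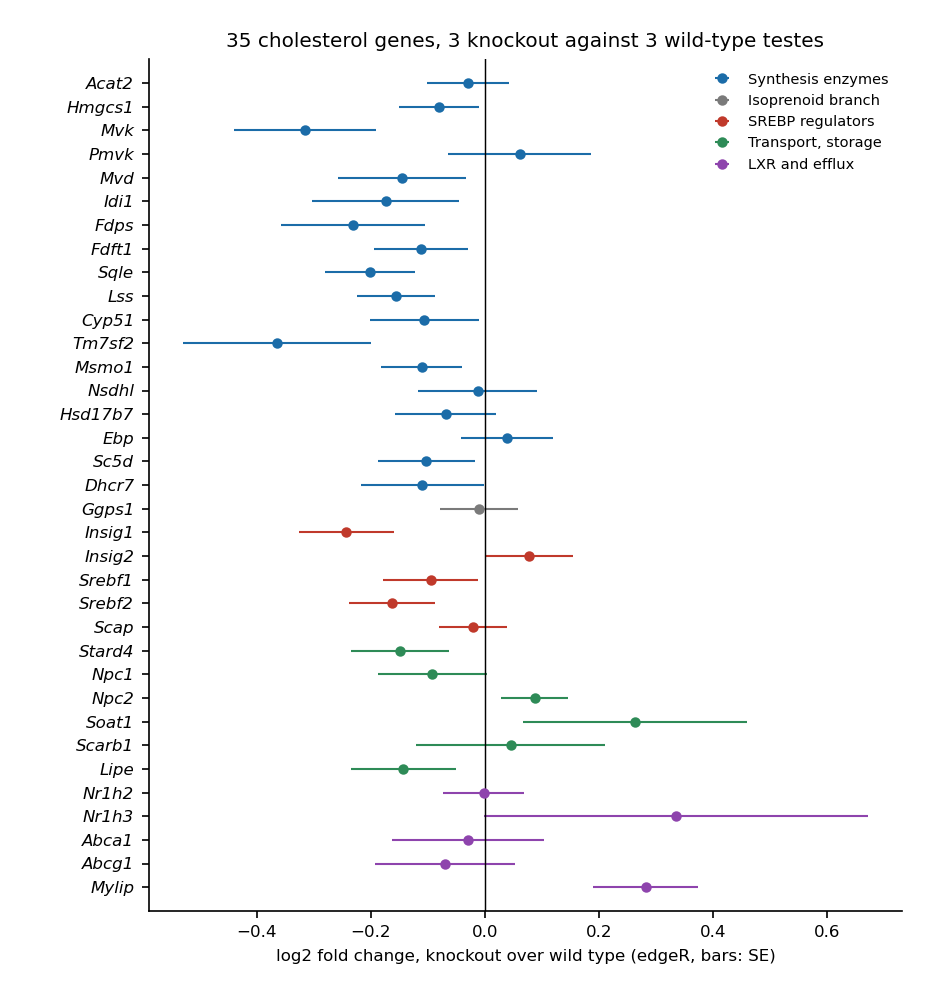
Log2 fold change of each of the 35 genes, knockout over wild type, on the x axis (edgeR, bars are SE, 3 libraries per genotype), with genes in role order on the y axis. Of the 35 genes 27 lie left of 0, and the 4 lowest values in this plot belong to Tm7sf2, Mvk, Insig1 and Fdps.

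None of the 35 genes passed edgeR's test after Benjamini-Hochberg adjustment over all 18040 genes, with or without the replicate block (0 of 35 both times). The background was 0% of all genes in each direction without the block, and 0.0111% lower and 0.0333% higher with it. At an unadjusted p under 0.05, 4 genes were lower in edgeR (Mvk, Sqle, Lss and Insig1) and 1 was higher (Mylip), where 1.23% of all genes were lower and 0.843% higher at that p. With the block the counts were 7 and 1, where the background was 3.89% and 3.59%. The 7 were Mvk, Sqle, Lss, Tm7sf2, Insig1, Srebf2 and Stard4. Their adjusted p values in edgeR with the block ran from 0.538 (Sqle) to 0.61 (Stard4). DESeq2 and limma voom each called 0 of the 35 after adjustment (0.00554% of all genes in each direction for DESeq2 and 0% for limma voom). Each had Mvk, Sqle and Insig1 lower and Mylip higher at an unadjusted p under 0.05, where the background was 0.682% lower and 0.66% higher for DESeq2 and 1.14% and 0.976% for limma voom. Most differences were small: 27 of 35 genes had a negative log2 fold change, with a median of -0.09 and a range from -0.36 to 0.34, beside a median of -0.005 over all tested genes, 52.2% of which were negative. The 3 knockout values lay wholly below the 3 wild-type values for 6 of the 35 genes (3.5% of all tested genes did so) and wholly above for 1 (3.09% of all). With CPM scaled by library totals the counts were 9 and 1, beside 4.62% and 2.1% of all tested genes.

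The number of genes at an unadjusted p under 0.05 in edgeR depended on single libraries. Without wild-type replicate 3 only 1 of the 35 genes was lower (1.08% of all genes lower, 0.826% higher), and without knockout replicate 3 it was 0 (0.942% and 0.998%). Without wild-type replicate 1 it was 8 (4.34% and 4.01%), and without wild-type replicate 2 it was 3 (0.815% and 0.604%). Without knockout replicate 1 it was 2 (0.809% and 0.61%), and without knockout replicate 2 it was 4 (1.35% and 0.859%). In these 6 fits 1 gene was higher. With the block, 10 genes were lower without pair 1 (4.69% and 5.43%), 9 without pair 2 (3.05% and 2.23%, with 0.0831% and 0.105% passing after adjustment and 0 of the 35 among them) and 0 without pair 3 (2.32% and 2.64%). The lower count was thus smallest where a library numbered 3 was left out.

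Most synthesis enzymes were slightly lower in the knockout and 0 of 18 passed the test, with 16 of 18 negative, a median log2 fold change of -0.11 and a range from -0.36 to 0.06. Their levels per length differed widely. Hmgcs1, which makes HMG-CoA, stood at 133.2 ± 8.585 RPKM (CPM divided by exon length in kilobases, SD, n = 3) in the wild type. The other 17 enzymes lay between 1.916 RPKM (Fdps) and 22.43 RPKM (Acat2). The low levels of Fdps and Idi1 are uncertain, because 26.2% and 25.3% of the 50-base windows of their transcripts also occur in other annotated genes, as do 39.1% of those of Acat2 and 26.5% of those of Fdft1. Tm7sf2 shares 532 exon bases on the same strand with Vps51, and its counts are uncertain for that reason. Fdps shares 1124 exon bases on the same strand with Gm43738 (mean 0.00789 CPM), which is also among the genes that share windows with it. On the opposite strand, Fdft1 shares 767 exon bases with Ctsb (mean 281 CPM), also 1 of the genes behind its shared windows. Cyp51 shares 166 with Akap9 (172 CPM) on the opposite strand. The isoprenoid gene Ggps1 shares 170 with Arid4b (214 CPM) in the same way. The counting strand is not given, so whether reads of those genes entered these counts is not known.

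Sqle, the squalene epoxidase gene, had 93.72, 96.44 and 113 CPM in wild-type replicates 1, 2 and 3, against 87.74, 90.8 and 85.15 CPM in knockout replicates 1, 2 and 3. The knockout values all lay below the wild-type values, and wild-type replicate 3 was the highest library. Mean levels were 101.1 ± 10.44 CPM (SD, n = 3) for wild type and 87.9 ± 2.827 CPM (SD, n = 3) for knockout, a log2 difference of -0.20 ± 0.08 (SE; edgeR adjusted p = 1). Without wild-type replicate 3 the difference was -0.11 ± 0.07, and with the block and without pair 3 it was -0.09 ± 0.06. Leaving out the highest wild-type library shrinks a negative value largely by construction, here and for the genes below. Leaving out the lowest wild-type library, or the pair with the smallest difference, makes such a value more negative in the same way. Over 16 alternative fits the Sqle value ran from -0.253 to -0.088, and its sign held in each.

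Lss, which folds oxidosqualene into lanosterol, measured 66.56, 64.82 and 73.33 CPM across wild-type replicates, and the knockout replicates gave 62.79, 60.81 and 60.06 CPM. Here too the groups did not overlap and wild-type replicate 3 was highest. Its log2 fold change was -0.16 ± 0.07 (SE; edgeR adjusted p = 1), and -0.10 ± 0.07 without wild-type replicate 3. Over the 16 alternatives the Lss value ran from -0.192 to -0.085.

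Mvk, the mevalonate kinase, stood at 18.52, 23.88 and 25.14 CPM in wild-type replicates 1, 2 and 3, while knockout replicates 1, 2 and 3 stood at 19.03, 18.91 and 16.35 CPM. Wild-type replicate 1 lay within the knockout range, so the groups overlapped, and the difference rested on replicates 2 and 3. The log2 fold change was -0.32 ± 0.12 (SE; edgeR adjusted p = 1), and -0.15 ± 0.11 with the block and without pair 3. Over the 16 alternatives the Mvk value ran from -0.474 to -0.15.

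Tm7sf2, a sterol C14 reductase, had the most negative log2 fold change of the enzymes, at -0.364 ± 0.165 (SE; edgeR adjusted p = 1). It had 7.969, 6.333 and 6.012 CPM in its wild-type libraries, against 5.737, 5.632 and 4.415 CPM in the knockout ones. Without wild-type replicate 1, its highest library, the value was -0.23 ± 0.17, while that of Mvk was -0.43 ± 0.10. Over the 16 alternatives Tm7sf2 ran from -0.46 to -0.227. It was 1 of only 4 enzymes, with Fdft1, Nsdhl and Ebp, whose highest library was not wild-type replicate 3. Lbr, which encodes a protein with the same reductase activity, had -0.035 ± 0.074.

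Among the other enzymes, Fdps (farnesyl diphosphate synthase) and Idi1 (isopentenyl diphosphate isomerase) also had knockout values wholly below wild type, with log2 fold changes of -0.23 ± 0.13 and -0.17 ± 0.13 (SE). Without wild-type replicate 3 that of Idi1 was -0.09 ± 0.14, and without wild-type replicate 1 or 2 it was -0.21. The early enzymes Acat2 and Hmgcs1 had -0.03 ± 0.07 and -0.08 ± 0.07. The mevalonate diphosphate decarboxylase gene Mvd had -0.145 ± 0.112, and Fdft1, the squalene synthase gene, -0.11 ± 0.08. The lanosterol demethylase gene Cyp51 had -0.11 ± 0.10, the methylsterol oxidase gene Msmo1 -0.11 ± 0.07, and Dhcr7, for the last reduction to cholesterol, -0.11 ± 0.11. Sc5d, the lathosterol desaturase gene, had -0.103 ± 0.085 and Hsd17b7, a sterol ketoreductase gene, -0.07 ± 0.09. The X-linked genes Nsdhl and Ebp, of the decarboxylation and isomerisation steps, had -0.01 ± 0.10 and 0.04 ± 0.08. Pmvk, the phosphomevalonate kinase gene, was the other positive value at 0.061 ± 0.125. Ggps1, which draws farnesyl diphosphate off to geranylgeranyl diphosphate, had -0.01 ± 0.07.

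**Figure D2:**
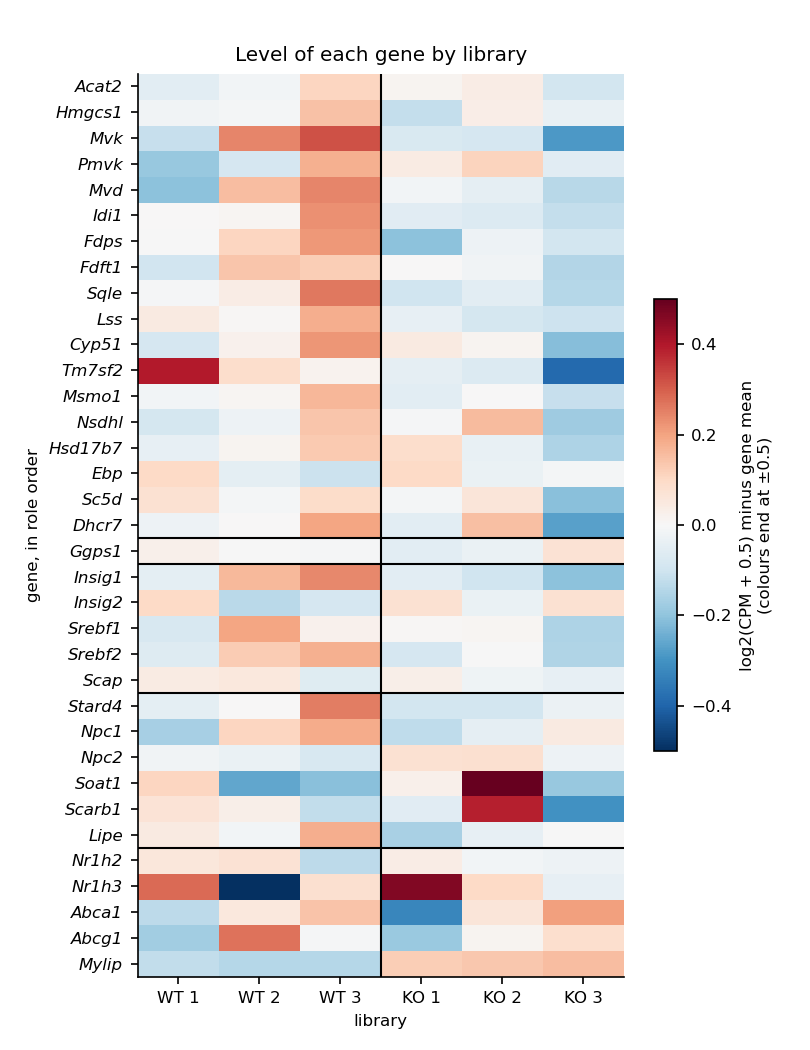
Each gene's log2(CPM + 0.5) minus its mean over the 6 libraries, by library (x axis) and gene (y axis, black lines between roles); WT is wild type and KO knockout. Most synthesis enzymes are red in WT 3 and blue in KO 3, Mylip is blue in 3 WT and red in 3 KO libraries, and Soat1 and Scarb1 reach their darkest red in KO 2.

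The negative values of the enzymes were largest between the libraries numbered 3. Wild-type replicate 3 was the highest library for 14 of the 18 enzymes, where it was highest for 16.7% of all tested genes, and knockout replicate 3 was the lowest for 13 of 18, against 18.2% of all. Both held for 10 of 18 enzymes and for 2.59% of all tested genes. The enzymes were read in the same 6 libraries and can vary together, so they are not 18 independent observations. In pair 3 (knockout replicate 3 over wild-type replicate 3) the median log2 ratio of the enzymes was -0.30, with 17 of 18 negative. In pair 1 it was -0.01 with 9 of 18 negative, and in pair 2 it was -0.03 with 11 of 18 negative, beside 50.5%, 50.4% and 50.6% of all tested genes negative in pairs 1, 2 and 3. Without wild-type replicate 3 the median log2 fold change was -0.05, without knockout replicate 3 it was -0.07, and with the block and without pair 3 it was -0.01 with 11 of 18 negative. Wild-type replicate 3 is the library with the most epididymis, rete and adipocyte marker RNA, and knockout replicate 3 the one with the least Leydig marker RNA. The part of these tissues in the enzyme levels was not tested. Of 12 fatty acid genes that SREBPs also drive, wild-type replicate 3 was highest for 4 and knockout replicate 3 lowest for 4, and the difference from the enzymes was not tested. Knockout was below wild type in all 3 pairs for 6 of the 18 enzymes and above in all 3 for 1, where 14.7% and 13.9% of all tested genes did so.

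**Figure D3:**
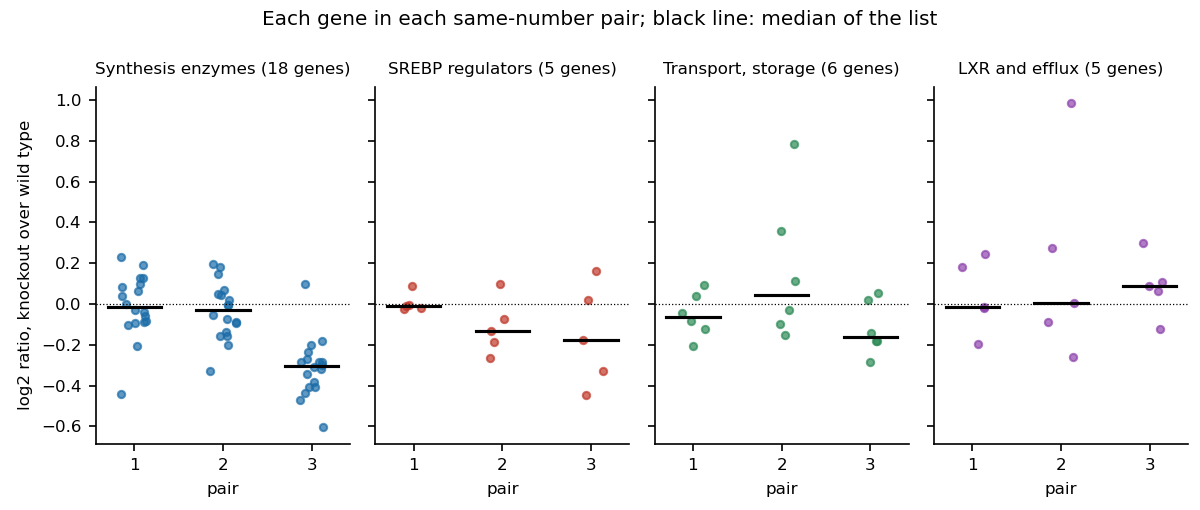
Log2 ratio of knockout over wild type, from CPM + 0.5, for each gene (points) in each pair of libraries with the same replicate number, by role. The enzymes centre on -0.30 in pair 3 and near 0 in pairs 1 and 2, while the LXR and efflux genes centre on 0.09 in pair 3.

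The promoters of the synthesis genes were read for the letters that SREBPs and their usual partners bind. RefSeq promoter sequences (GRCm38.p6, 250 bases before to 50 bases after the start) were found for 28 of the 35 genes, in 38 entries, 18 of them of 15 synthesis enzymes. A SREBP element, searched as TCACNCCAC on both strands, was in 1 of these 18 (5.56%), that of Hmgcs1, and in 1.16% of the 15373 promoters of tested genes. The box CCAAT of the factor NF-Y, also searched on both strands, was in 14 of 18 (77.8%) and in 37.5% of promoters of tested genes. The Sp1 box GGGCGG was in 15 of 18 (83.3%), against 59.9%. The LXR element was searched as an exact direct repeat of AGGTCA with a spacer of 4 bases. It was in 0 of the 38 entries, but also in 0 of the 15373 promoters of tested genes. A search this strict therefore cannot tell these genes from others. It was in 0.0152% of all 32851 promoters of the table. Over that whole table the SREBP element was in 1.24%, CCAAT in 37.4% and GGGCGG in 35.7%. The promoters of Hmgcs1, of Mvk and of the feedback gene Insig1 are shown because Hmgcs1 holds the SREBP element, while Mvk and Insig1 were an enzyme and a regulator at an unadjusted p under 0.05 in edgeR without the block. Each is written 5′ to 3′ on the gene's strand, with the SREBP element and each CCAAT (or ATTGG, its other strand) in capitals, and these motifs do not overlap in them.
Hmgcs1 (chr13:119690101-119690400, plus strand): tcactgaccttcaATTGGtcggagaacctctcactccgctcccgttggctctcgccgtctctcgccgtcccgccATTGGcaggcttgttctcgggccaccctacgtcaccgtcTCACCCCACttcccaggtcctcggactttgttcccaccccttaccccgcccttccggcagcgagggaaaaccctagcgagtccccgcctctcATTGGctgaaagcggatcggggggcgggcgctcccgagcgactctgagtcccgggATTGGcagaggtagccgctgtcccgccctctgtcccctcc
Mvk (chr5:114444019-114444318, plus strand): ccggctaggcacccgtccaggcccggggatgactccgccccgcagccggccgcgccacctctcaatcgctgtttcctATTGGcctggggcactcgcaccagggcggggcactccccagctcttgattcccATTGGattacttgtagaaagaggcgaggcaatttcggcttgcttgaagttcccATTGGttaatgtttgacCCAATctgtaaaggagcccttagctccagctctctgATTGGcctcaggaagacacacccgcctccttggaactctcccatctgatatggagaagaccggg
Insig1 (chr5:28071162-28071461, plus strand): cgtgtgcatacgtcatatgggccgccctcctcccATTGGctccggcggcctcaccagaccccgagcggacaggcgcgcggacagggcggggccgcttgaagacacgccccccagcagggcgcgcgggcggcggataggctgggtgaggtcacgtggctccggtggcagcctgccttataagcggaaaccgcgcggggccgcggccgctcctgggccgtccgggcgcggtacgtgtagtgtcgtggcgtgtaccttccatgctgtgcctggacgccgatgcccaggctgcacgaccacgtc
The Hmgcs1 promoter thus carries its SREBP element 137 bases before the start and 4 CCAAT boxes, that of Mvk 5 boxes and that of Insig1 1 box. A match is a description of letters in this window and not a bound site. The SREBP search counted only the exact pattern, so a promoter without a match may still hold a variant of the element.

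Among the SREBP regulators, 1 was lower at an unadjusted p under 0.05 in edgeR (Insig1) and 2 with the block (Insig1 and Srebf2), beside 1.23% and 3.89% of all genes. INSIG1 is the inducible brake on SCAP, and its gene is itself a target of SREBP. Insig1 measured 82.59, 95.65 and 100.9 CPM across wild-type replicates, and the knockout replicates gave 82.28, 79.63 and 73.93 CPM. The groups did not overlap, but replicate 1 of each genotype stood at nearly the same level, with a log2 ratio of -0.01. Mean levels were 93.06 ± 9.444 CPM (SD, n = 3) for wild type and 78.61 ± 4.265 CPM (SD, n = 3) for knockout and the log2 fold change was -0.24 ± 0.08 (SE; edgeR adjusted p = 1; blocked edgeR adjusted p = 0.555). With the block and without pair 1 it was -0.35 ± 0.07 and passed in edgeR (adjusted p = 0.0462; 0.177% of all genes passed lower and 0.249% higher there). Pair 1 had the smallest Insig1 difference of the pairs, so leaving out pair 1 makes the value more negative largely by construction. With the block and without pair 3 the Insig1 value was -0.13 ± 0.07 (edgeR adjusted p = 0.949).

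Srebf2, whose product SREBP2 drives the cholesterol genes, stood at 234.1, 267.6 and 277.1 CPM in wild-type replicates 1, 2 and 3, while knockout replicates 1, 2 and 3 stood at 230.9, 244.3 and 220.5 CPM. Knockout replicate 2 lay above wild-type replicate 1, so the groups overlapped. Its log2 fold change was -0.16 ± 0.08 (SE; edgeR adjusted p = 1). Srebf1, which encodes the SREBP1 forms that favour fatty acid genes, ran from 97.07 to 118 CPM in wild-type and from 92.36 to 103.5 CPM in knockout libraries, with -0.095 ± 0.083. Without wild-type replicate 2, its highest library, Srebf1 had -0.015 ± 0.077, and over the 16 alternatives it ran from -0.18 to -0.015. Insig2, the second brake on SCAP, had the opposite sign at 0.08 ± 0.08, with 70.41 to 82.77 CPM in wild-type and 75.5 to 81.55 CPM in knockout libraries. Scap itself differed little among libraries, at 231.3 ± 9.931 and 228 ± 5.837 CPM, with -0.02 ± 0.06. The median of the 5 regulators was -0.095, and without wild-type replicate 2 it was -0.015. Over the 16 alternatives that median ran from -0.18 to -0.015.

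**Figure D4:**
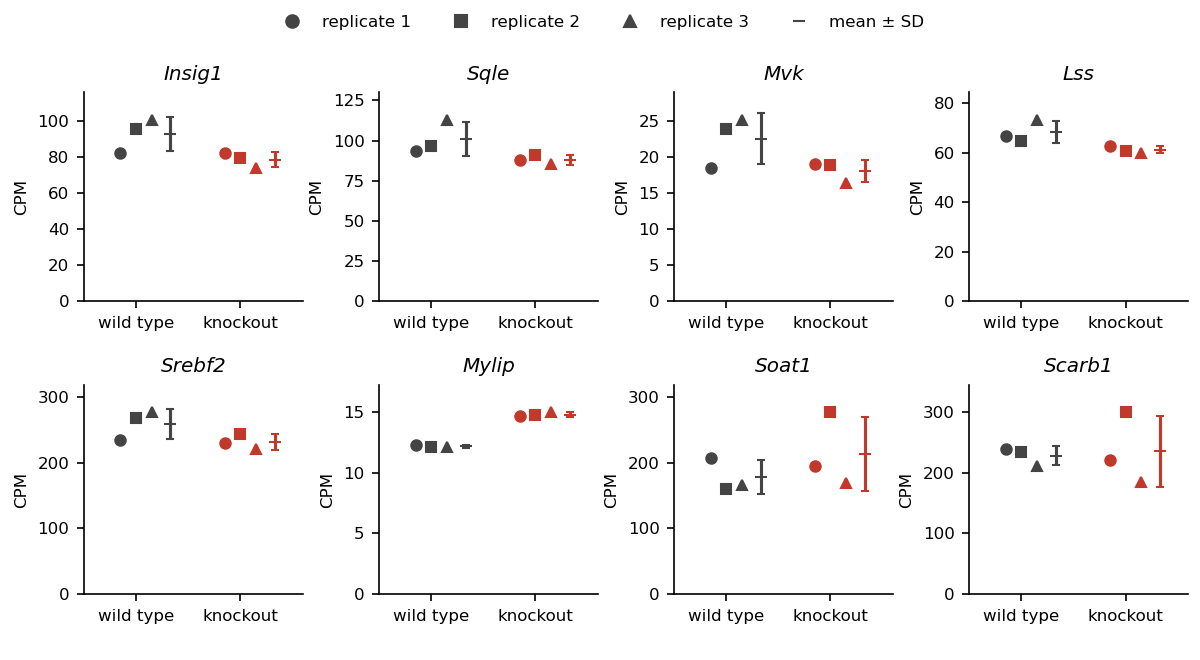
CPM (y axis, from 0) of 8 genes in each library, with replicates as circles, squares and triangles and the mean ± SD beside them (n = 3 per genotype). Mylip has all knockout points above all wild-type points, and knockout replicate 2 is the highest point for Soat1 and Scarb1.

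The LXR and efflux genes showed no common direction, with 3 of 5 negative. Mylip, an LXR target that encodes a ubiquitin ligase (IDOL) acting on lipoprotein receptors, had 12.27, 12.09 and 12.07 CPM in its wild-type libraries, against 14.62, 14.74 and 14.96 CPM in the knockout ones. Every knockout library lay above every wild-type library, and it was higher by 0.24, 0.28 and 0.30 on the log2 scale in pairs 1, 2 and 3. Mean levels were 12.15 ± 0.1086 CPM (SD, n = 3) for wild type and 14.77 ± 0.1724 CPM (SD, n = 3) for knockout. These SDs are below the 0.743 and 0.819 CPM that counting alone would give at 255 to 332 counts. The log2 fold change was 0.28 ± 0.09 (SE; edgeR adjusted p = 1; blocked edgeR adjusted p = 0.505), and over 16 alternatives it lay between 0.27 and 0.30 without passing once.

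The cholesterol exporter gene Abca1 measured 247.2, 280.4 and 298.3 CPM across wild-type replicates, and the knockout replicates gave 215.4, 281.8 and 311.8 CPM. In each genotype the library numbered 1 was the lowest, the groups overlapped, and the log2 fold change was -0.03 ± 0.13. Abcg1, the exporter to mature lipoprotein particles, ran from 23.54 to 32.19 CPM in wild-type and from 23.31 to 28.2 CPM in knockout libraries, with -0.07 ± 0.12. Nr1h2, for LXR beta, was at 85 ± 6.641 and 84.92 ± 1.997 CPM, with -0.002 ± 0.071. Nr1h3, for LXR alpha, was the least expressed of the 35 at 0.996 RPKM in the wild type. It had 1.231 CPM in wild-type replicate 2 against 2.613 to 3.916 CPM in the other libraries, and a log2 fold change of 0.335 ± 0.336. Without wild-type replicate 2 that value was 0.004 ± 0.229, and without wild-type replicate 1 it was 0.63 ± 0.34. Nr1h2 was thus the LXR gene with the higher level per length, at 25.34 RPKM. The median of the 5 genes was -0.002, and without knockout replicate 1 it was 0.11.

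**Figure D5:**
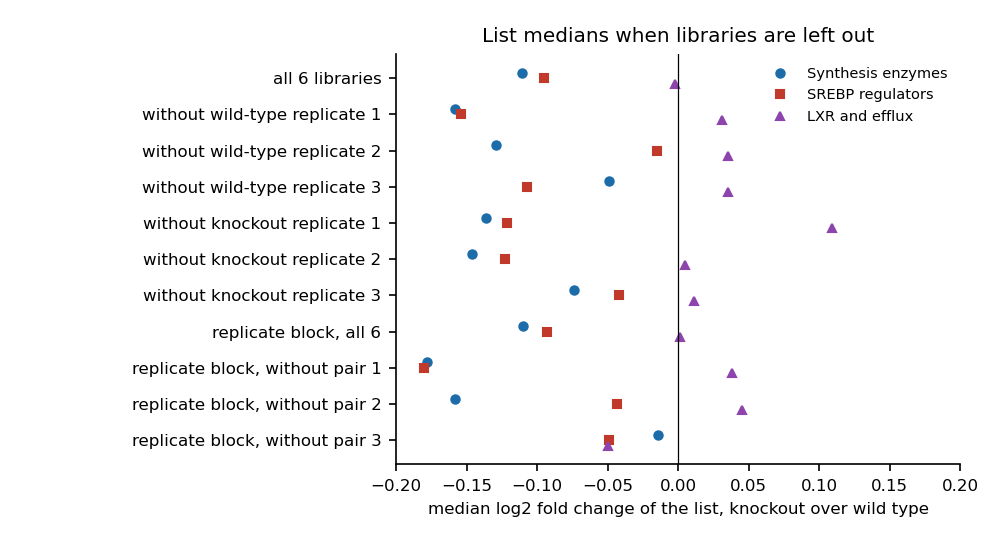
Median log2 fold change (x axis) of the synthesis enzymes, the SREBP regulators and the LXR and efflux genes with all libraries and with libraries or pairs left out (y axis). The enzyme median stays below 0 in each row and runs from -0.18 to -0.01, and the LXR and efflux median runs from -0.05 to 0.11.

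Of the 6 genes of transport, storage and uptake, 3 were negative and 3 positive. Soat1, which esterifies cholesterol for storage, stood at 207.1, 160.4 and 166.2 CPM in wild-type replicates 1, 2 and 3, while knockout replicates 1, 2 and 3 stood at 195.5, 276.5 and 168.5 CPM. Scarb1, the lipoprotein receptor through which steroid-making cells take up cholesterol esters, gave 239.9, 233.5 and 210.4 CPM across wild-type replicates, and 220.3, 299.8 and 185.3 CPM across knockout replicates. Both were highest in knockout replicate 2, where Leydig markers summed to 993.6 CPM, and the part of Leydig cells in these levels was not tested. The log2 fold changes were 0.26 ± 0.20 for Soat1 and 0.045 ± 0.166 for Scarb1, and without knockout replicate 2 they were 0.03 ± 0.12 and -0.17 ± 0.10. Star, which brings cholesterol to the inner mitochondrial membrane for steroid synthesis, was also highest there, at 187.7 CPM against 22.98 to 96.67 CPM in the other libraries. So were the Leydig markers Cyp11a1, Cyp17a1, Hsd3b6, Insl3 and Lhcgr. The other Leydig markers were not. Hsd3b1 was highest in wild-type replicate 3 (207 CPM, with 177.7 CPM in knockout replicate 2). Hsd17b3 and Nr5a1 were highest in wild-type replicate 2 (36.28 and 222.8 CPM, with 21.34 and 212 CPM in knockout replicate 2).

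Stard4, a soluble sterol carrier under SREBP control, had 60.58, 62.76 and 74.89 CPM in its wild-type libraries, against 58.69, 58.65 and 61.41 CPM in the knockout ones. Its highest level was in wild-type replicate 3 and the groups overlapped, with -0.15 ± 0.09 (SE; edgeR adjusted p = 1), and -0.05 ± 0.07 without that library. Over the 16 alternatives Stard4 ran from -0.204 to -0.047. Npc1 and Npc2, which pass cholesterol out of the lysosome, had -0.09 ± 0.10 and 0.09 ± 0.06. Npc2 was higher in 3 of 3 pairs, by 0.09, 0.12 and 0.05 on the log2 scale, with 179.6 ± 4.131 CPM in wild-type and 190.9 ± 7.937 CPM in knockout libraries (edgeR adjusted p = 1). Lipe, the hormone-sensitive lipase that frees stored cholesterol esters, had -0.14 ± 0.09, with 19.79 to 22.72 CPM in wild-type and 17.8 to 19.96 CPM in knockout libraries.

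Of 39 further genes of sterol sensing, transport, oxidation and export, 34 could be tested and 0 passed in edgeR; 21 had a negative and 13 a positive log2 fold change, with a median of -0.03. At an unadjusted p under 0.05, 2 were lower and 0 were higher in edgeR, beside 1.23% and 0.843% of all genes, and 3 were lower with the block, beside 3.89%. Stard5, another sterol carrier, was at 24.21 ± 2.221 CPM in wild-type and 20.25 ± 1.703 CPM in knockout libraries, a difference of -0.26 ± 0.10 on the log2 scale (edgeR adjusted p = 1). Lcat, the plasma enzyme that esterifies cholesterol, was low, at 1.219 ± 0.2304 and 0.7428 ± 0.1178 CPM, with -0.71 ± 0.27 (edgeR adjusted p = 1). The exporter gene Abcg4 had -0.348 ± 0.175, and Lrp8, a lipoprotein receptor gene, 0.28 ± 0.16.

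Of 12 fatty acid genes under SREBP control, 0 passed in edgeR and 0 had an unadjusted p under 0.05; 8 were negative and 4 positive, with a median log2 fold change of -0.02. Scd2, a fatty acid desaturase gene, was at 1125 ± 79.86 CPM in wild-type and 1098 ± 88.1 CPM in knockout libraries, with -0.035 ± 0.081. Thrsp, a lipogenic regulator gene, had 0.37 ± 0.35 at 0.8106 CPM in wild-type and 1.045 CPM in knockout libraries, Elovl5 0.05 ± 0.08 and Elovl6 -0.18 ± 0.25, both of fatty acid elongation. Scd1, the desaturase of fat tissue, was at 34.13 CPM in wild-type replicate 3 and 25.23 CPM in knockout replicate 3 against 12.18 to 18.04 CPM in the other libraries. These are also the 2 libraries with the most adipocyte marker RNA, whose part in the Scd1 level was not tested.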

How the data were processed

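Raw, whole-number counts of reads per gene for 6 libraries were deposited by the authors in 1 table. The submitters' processing notes name bcl2fastq 2.19.1, GSNAP, featureCounts 1.6.0 and the build mm10, and the library kit was directional, per the labels' protocols. The counting strand, the annotation release and the handling of reads with several matches: not given in the sources used here. Exon lengths for RPKM came from the length column, per the file headers.

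Left out were 92 spike-in rows with 1 count in all. Of 49671 gene rows 49412 matched GENCODE M21. The main test was the robust quasi-likelihood F test of edgeR 4.0.16 (R 4.3.3; TMM, filterByExpr, two-sided, Benjamini-Hochberg adjustment over 18040 genes, threshold 0.05). CPM and RPKM use TMM-scaled sizes, and pair ratios add 0.5 CPM. DESeq2 1.42.0, limma 3.58.1 (voom), other scalings, no filter, the replicate block and left-out libraries were alternatives. Replicates of a group differed by a chi-square per degree of freedom of 7.76 to 14.08, so none was a duplicate. Libraries with the same replicate number deviated together from their group means (correlations of 0.42, 0.26 and 0.28, each over the limit of 0.1), so the numbers were taken to pair them, on this hint from the data. The main test leaves this pairing out, so SEs and p-values given without the block do not use it. The labels do not say whether libraries came from separate litters or days, and p-values measure the spread between these samples. The genes, roles and lists were chosen with earlier results of these data known. Picked for fuller description were, in each list, up to 4 genes with the smallest unadjusted p, and Ankrd31. Some of these are given by range or mean only. The library values of Scarb1, which was high in knockout replicate 2, are also given although this rule did not pick it. Lbr, Scd1, Star and the single marker genes were named after their values were seen.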

Additional observations from a re-analysis of the deposited data

How the results depend on the processing

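Over 16 alternatives, 22 to 27 of the 35 genes and 11 to 17 of the 18 synthesis enzymes had a negative log2 fold change. The number of calls over all genes in place of 0 was 2 with DESeq2 (Ankrd31 and Rn7sk), 1 without a count filter (Gm22513) and 8 with the replicate block, and 0 to 77 when a library or pair was left out (77 without pair 1 and 34 without pair 2, both with the block); the other scalings and limma voom gave 0. Members called ranged from 0 to 1 over these leave-outs, the 1 being Insig1 with the block and without pair 1. Members lower at an unadjusted p under 0.05 numbered 7 with the replicate block and 0 to 10 over the leave-outs (10 and 9 with the block without pairs 1 and 2, 0 with the block without pair 3 and without knockout replicate 3, 1 without wild-type replicate 3, 8 without wild-type replicate 1, 2 without knockout replicate 1), and members higher 1 to 2. The replicate block changed the call of Ankrd31 and of no member. Over the leave-outs the median log2 fold change ran from -0.18 to -0.01 for the enzymes, -0.18 to -0.02 for the SREBP regulators and -0.05 to 0.11 for the LXR and efflux genes (0.005 without knockout replicate 2 and 0.109 without knockout replicate 1), and that of transport, storage and uptake from -0.11 to 0.03. Some single genes changed sign when a library or pair was left out. Values ran from -0.052 to 0.026 for Ggps1 (0.015 and 0.005 without knockout replicates 1 and 2, 0.004 without wild-type replicate 1, -0.049 without knockout replicate 3), -0.032 to 0.409 for Soat1, -0.164 to 0.063 for Abcg1 (0.040 with the block without pair 2, 0.006 without knockout replicate 1), -0.147 to 0.109 for Abca1 (0.038 with the block without pair 1, 0.035 without wild-type replicate 3), -0.466 to 0.108 for Elovl6, -0.059 to 0.112 for Elovl5 (-0.048 without knockout replicate 2) and -0.103 to 0.024 for Scd2; the cause was not tested. Nr1h3 ran from 0.004 (without wild-type replicate 2) to 0.627, and Scarb1 had -0.168 without knockout replicate 2. Enzyme pair medians moved by little with other pseudocounts, and pair 3 ran from -0.31 to -0.28.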
